A study of Mus musculus with 3 samples.

Results

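The Bcl2 family decides whether a cell opens its mitochondria and dies, and 10 of its genes were followed here through the bone marrow of mice with and without a heart attack. The members were taken by symbol from the gene list of the deposited matrices, 10 of 32285 genes: Bcl2, Bcl2l1, Mcl1, Bcl2a1b and Bcl2a1d, which protect cells; Bax and Bak1, which carry out the killing; and Bcl2l11, Bbc3 and Pmaip1, which start it. All 10 were found. Each was described along the stages of B cell development and in neutrophils, monocytes and T cells.

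The study sequenced RNA from single cells of C57BL/6J mouse femurs and tibias, with 1 library for each of 3 conditions. MI-E is myocardial infarction with EMPA, an agent the labels give by this abbreviation alone. MI is myocardial infarction made by tying the left anterior descending coronary artery, and Sham is the control, for which the labels give no more than the name. The marrow was separated on a Ficoll-Paque gradient and run on the 10x 3′ chemistry, which tags each captured molecule near its 3′ end so that it counts once, as a UMI. The number of animals behind each library, their age and the time after surgery are not given in the sources used here, and the surgical text names the artery ligation for every sample, Sham included.

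Apoptosis through the mitochondria is set by binding among these proteins. BCL2, BCL-XL (encoded by Bcl2l1), MCL1 and A1 (the Bcl2a1 genes) hold BAX and BAK in check. BH3-only proteins such as BIM (Bcl2l11), PUMA (Bbc3) and NOXA (Pmaip1) occupy those guards, and BAX and BAK then perforate the outer mitochondrial membrane and release cytochrome c. In blood cells the choice of guard differs by lineage: MCL1 is the one neutrophils are known to need, BCL-XL is known from pre-B cells that are rearranging their light chains, and BCL2 is known from mature lymphocytes. Much of the control of MCL1, and of the killers, is exerted on protein, which RNA counts do not show.

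With 1 library per condition there is no spread between animals, so no difference below has a test, and no statement here extends beyond these 3 libraries. Levels are in CPM, the UMIs of a gene with the UMIs of its cell class scaled to a total of 1000000, with exact Poisson 95% intervals, and ratios carry exact conditional binomial 95% intervals. Both cover counting error only. A gene was taken as measured in a comparison when its mean over the 2 libraries was at least 10 CPM, and as different when the libraries were at least 1.5-fold apart. MI-E against MI sets the agent beside infarction alone, MI against Sham asks about the infarction, and MI-E against Sham about both at once. Condition and library cannot be told apart in any of them.

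After filters on genes, UMIs and doublets, 19618 MI-E, 20399 MI and 21274 Sham cells were kept. Clusters were named from marker genes, as "like" a class. Dntt, which adds bases where heavy chain segments join, reached 1586, 1434 and 1841 CPM in pro-B-like cells of MI-E, MI and Sham, and at most 16.2 CPM outside the pro-B-like and large pre-B-like cells compared. Cd3e, part of the T cell receptor, was at 354 to 374 CPM in T-like cells and at most 1.23 CPM in any other class compared. Class sizes differed between libraries: pro-B-like cells numbered 123, 76 and 431, small pre-B-like cells 744, 535 and 2921, and neutrophil-like cells 5118, 6511 and 2540 in MI-E, MI and Sham. MI had 7 large pre-B-like cells, too few to compare, so that stage has MI-E and Sham values only. In 4 classes (small pre-B-, mature naive B-, neutrophil- and monocyte-like) the cluster with the most cells differed between Sham and the other libraries. It was sub-cluster b5 in MI-E and MI against b2 in Sham for small pre-B-like cells, and b0 against b1 for mature naive B-like cells. In neutrophil-like cells it was cluster 2 against 11, and in monocyte-like cells cluster 1 against 6. Free RNA was estimated as the level of genes of another lineage in a class over their level in all cells. The genes were S100a8 and S100a9 for B and T classes, and Cd79a, Cd79b and Ighm for the myeloid classes. The estimate was 1.34 to 4.85% in B and T classes, 10.1 to 10.5% in neutrophil-like and 13.2 to 14.4% in monocyte-like cells. It takes free RNA to have the make-up of all cells pooled, and the 2 gene sets need not share a scale.

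Bcl2, on chr1:106538178-106714274 (mm10, minus strand), encodes the founding protector of lymphocytes, and it was nearly silent in small pre-B-like cells and plentiful in the next stage in all 3 libraries. Small pre-B-like cells held 2, 3 and 9 Bcl2 UMIs in MI-E, MI and Sham, levels of 2.15, 4.42 and 2.33 CPM. By the estimate above, free RNA alone would give 1.60, 1.14 and 1.66 CPM of this. The folds against this stage are therefore taken over very few UMIs. Immature B-like cells, which carry the first surface receptor, held 118 CPM in MI-E, 91.7 CPM in MI and 87.0 CPM in Sham. The immature stage was therefore 54.9-fold (95% interval 14.8 to 460) above the small pre-B stage in MI-E, 20.7-fold (6.83 to 103) in MI and 37.4-fold (19.4 to 82.9) in Sham. Mature naive B-like cells were higher again, by 1.69-, 1.75- and 1.52-fold over the immature stage in MI-E, MI and Sham. Before the small pre-B stage the gene was low as well. Large pre-B-like cells, the dividing precursors, held 7.19 CPM in MI-E and 11.5 CPM in Sham, and pro-B-like cells 16.6 CPM in MI-E, 8.62 CPM in Sham and no UMI in MI, which allows up to 21.5 CPM there.

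Bcl2l1, on chr2:152780668-152831728 (minus strand), ran the other way. It is the gene of BCL-XL. Among the stages compared it was highest in small pre-B-like cells, at 145 CPM in MI-E, 152 CPM in MI and 166 CPM in Sham. It stood at 50.3 CPM in MI-E and 42.8 CPM in Sham one stage earlier, so the small pre-B stage was 2.89-fold (1.82 to 4.82) higher in MI-E and 3.89-fold (3.36 to 4.52) higher in Sham. Immature B-like cells held 17.1, 9.66 and 12.1 CPM in MI-E, MI and Sham, which is 8.51-, 15.7- and 13.7-fold below the small pre-B stage, and mature naive B-like cells 4.16, 6.82 and 7.48 CPM. The small pre-B stage was thus the highest of the stages compared in each of the 3 libraries. In MI the stage before it could not be compared, and its 7 cells held 8 Bcl2l1 UMIs, or 275 CPM (119 to 542).

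Because each captured molecule counts once, the UMIs of this pair can be added. Bcl2 gave 1.46% of the pair's UMIs in small pre-B-like cells of MI-E (exact binomial 95% interval 0.177 to 5.17%), 2.83% in MI (0.588 to 8.05%) and 1.38% in Sham (0.632 to 2.60%). One stage on, in immature B-like cells, its share was 87.4% in MI-E, 90.5% in MI and 87.8% in Sham, and among mature naive B-like cells 98.0%, 95.9% and 94.7%. Among the named stages the exchange of one protector for the other thus fell between the same pair in each library. Sub-cluster b4, which scored best as immature B but had plasmacytoid dendritic genes at its top and was left without a stage, was still on the Bcl2l1 side. Of the pair's UMIs in its 261 MI-E, 320 MI and 852 Sham cells, Bcl2 gave 3 of 15, 3 of 18 and 5 of 109. Its share in the other sub-clusters without a stage ranged from 10.5 to 100%. In pro-B-like cells the pair summed to 20, 3 and 39 UMIs in MI-E, MI and Sham, too few to order the libraries.

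**Figure D1:**
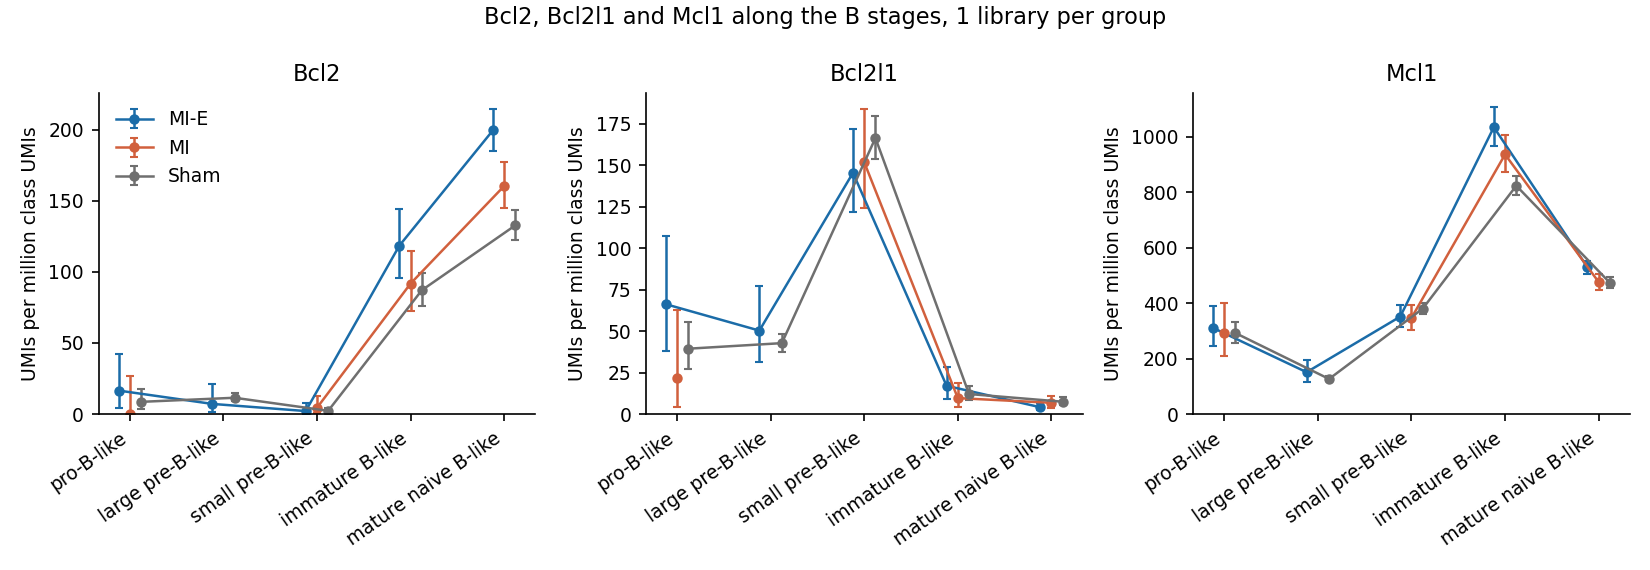
Levels (CPM) of Bcl2, Bcl2l1 and Mcl1 along the 5 B stages from pro-B-like to mature naive B-like, 1 line per library with Poisson 95% bars. MI has no large pre-B-like point. Bcl2 is at 2.15 to 4.42 CPM in small pre-B-like cells and at 87.0 to 118 CPM in immature B-like cells. Among the points shown, Bcl2l1 is highest in small pre-B-like cells (145 to 166 CPM), and Mcl1 in immature B-like cells.

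Mcl1, on chr3:95658788-95663176 (plus strand), encodes a short-lived protector and had yet another profile, with its top in the immature stage. Immature B-like cells held 1034 CPM in MI-E (965 to 1106), 935.5 CPM in MI (871 to 1004) and 823 CPM in Sham (789 to 858). These levels were 2.94-, 2.70- and 2.17-fold above small pre-B-like cells and 1.95-, 1.97- and 1.74-fold above mature naive B-like cells of MI-E, MI and Sham. The lowest B stage was the large pre-B one, at 151 CPM in MI-E and 127 CPM in Sham.

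The killers differed less along the stages. Bak1 was lower in mature naive than in small pre-B-like cells in each library, 0.57-fold in MI-E, 0.59-fold in MI and 0.53-fold in Sham, while Bax was at 0.97 of the small pre-B-like level in MI-E (0.75 to 1.27), 0.96 in MI (0.73 to 1.27) and 0.73 in Sham (0.64 to 0.82). Over the step from small pre-B-like to mature naive B-like cells, 7 members were measured in MI-E, of which 3 were at least 1.5-fold higher and 2 lower, against 18% and 22.4% of all genes. In MI 1 of 6 was higher and 2 were lower, against 17.9% and 21.3%, and in Sham 2 of 7 were higher and 2 lower, against 13% and 24.8%. Stages were cut from these same cells, although with the family's genes left out of the clustering genes, so the profiles are a description.

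Mature naive B-like cells differed in Bcl2 between the libraries in the order MI-E, MI, Sham. The level was 199 CPM in MI-E (185 to 215), 160 CPM in MI (145 to 177) and 133 CPM in Sham (123 to 143), with no overlap between the counting intervals. MI-E stood 1.5-fold above Sham (1.35 to 1.67) and 1.24-fold above MI (1.10 to 1.41), and MI 1.21-fold above Sham (1.06 to 1.37). In this class 11.1% of all genes were at least 1.5-fold higher in MI-E than in Sham, the median gene was itself 0.20 higher on the log2 scale, and Bcl2 was past 1.5-fold in 6 of 11 other ways of processing. Within sub-cluster b0 the ratio of MI-E to Sham was 1.69 (1.22 to 2.40), and within b1 it was 1.47 (1.13 to 1.89). MI did not keep its place inside both, at 1.38 of Sham in b0 (0.99 to 1.97) and 0.92 in b1 (0.54 to 1.46), where MI had 121 cells.

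T-like cells had the highest Bcl2 of the 8 classes in every library, 585 CPM in MI-E (549 to 623), 629 CPM in MI (587 to 674) and 462 CPM in Sham (422 to 504). MI-E and MI overlapped, and both lay above Sham, by 1.27-fold (1.14 to 1.41) and 1.36-fold (1.22 to 1.53). In neutrophil-like cells Bcl2 was at 5.16, 3.79 and 4.88 CPM in MI-E, MI and Sham, close to the 4.34, 2.77 and 3.86 CPM that free RNA alone would give.

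In monocyte-like cells Bcl2 went the opposite way, at 8.42 CPM in MI-E, 5.50 CPM in MI and 16.0 CPM in Sham, with 6.15, 3.65 and 4.88 CPM to be had from free RNA. B lineage markers in these cells summed to 405, 289 and 1406 CPM in MI-E, MI and Sham, so B cell RNA moved with the result. Cluster 13 held the widest gap, with Bcl2 at 19.1 CPM in 606 MI-E cells, 15.2 CPM in 537 MI cells and 117 CPM in 108 Sham cells. The part of B cell RNA in it was not tested. At the coarser clustering resolution of 0.5 the difference of MI-E from Sham was gone, with a log2 ratio of -0.03 in place of -0.93. The log2 ratio of MI to Sham was -1.54. It was past 1.5-fold under 10 of 11 other ways of processing and -0.51 at its weakest. In this class 7.92% of all genes were at least 1.5-fold lower in MI than in Sham, and 4.93% in MI-E than in Sham.

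Among neutrophil-like cells, Mcl1 was highest in MI-E and lowest in Sham. The level was 495 CPM in MI-E (485 to 504), 391 CPM in MI (384 to 398) and 305 CPM in Sham (294 to 316), 3 intervals that do not meet. MI-E was 1.62-fold above Sham (1.56 to 1.69) and 1.27-fold above MI (1.23 to 1.30), and MI was 1.28-fold above Sham (1.23 to 1.34). Within this class 4.64% of all genes were at least 1.5-fold higher in MI-E than in Sham, and Mcl1 was past that mark under 9 of 11 other ways of processing.

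The make-up of the neutrophil-like cells differed between libraries, and Mcl1 differs by cluster. Cluster 4, led by the chemokine receptor Cxcr2 and by Cxcl2, held 35.7% of these cells in MI-E, 35.4% in MI and 2.44% in Sham. Cluster 11, led by Il1b and the immediate early gene Egr1, held 4.06%, 1.01% and 56.9%. The level of Mcl1 in cluster 7, whose Camp and Ngp belong to granule-forming precursors, was 166, 157 and 104 CPM in MI-E, MI and Sham. It was 430, 339 and 213 CPM in the Ltf-led cluster 2, 1167, 939 and 813 CPM in cluster 4, and 870, 924 and 555 CPM in cluster 11. MI-E was therefore above Sham inside each of the 4 clusters, by 1.60-fold (1.42 to 1.80) in cluster 7, 2.02-fold (1.83 to 2.22) in cluster 2, 1.44-fold (1.17 to 1.78) in cluster 4, where Sham had 62 cells, and 1.57-fold (1.40 to 1.75) in cluster 11. MI-E was above MI in 3 of them and below it in cluster 11, where MI had 66 cells. In clusters 7 and 11 the counting intervals of MI-E and MI overlapped.

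**Figure D2:**
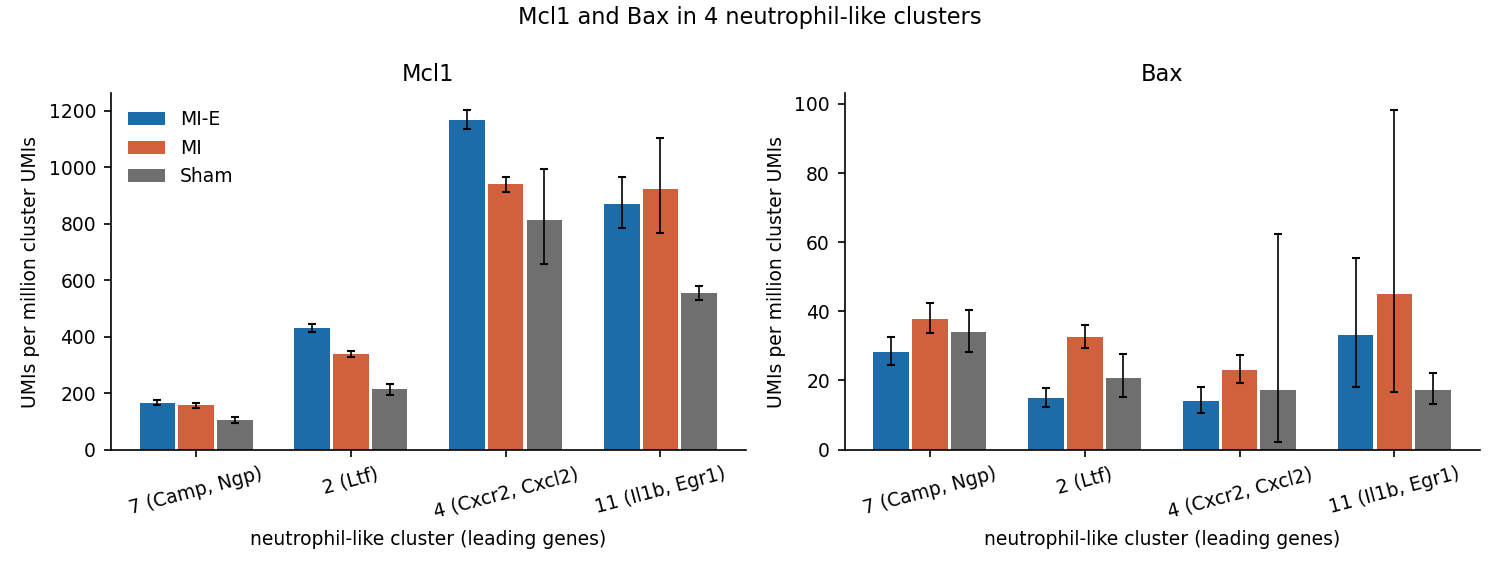
Levels (CPM) of Mcl1 and Bax in 4 clusters of neutrophil-like cells, with bars for MI-E, MI and Sham and Poisson 95% intervals. Mcl1 is lowest in cluster 7 (104 to 166 CPM) and highest in cluster 4 (813 to 1167 CPM), and MI-E exceeds Sham in every one of the 4.

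In the other classes Mcl1 differed less between libraries. Monocyte-like cells held 400, 344 and 375 CPM in MI-E, MI and Sham, T-like cells 230, 241 and 200 CPM, and mature naive B-like cells 529, 476 and 473 CPM. The genes of Mcl1 protein turnover, such as the ubiquitin ligase Huwe1 and the deubiquitinase Usp9x, were measured 50 times over the 8 classes for MI-E against Sham, with 4 values at least 1.5-fold higher and 1 lower, both below the 13.5% and 8.15% of all genes over these classes. Bcl2l1 in neutrophil-like cells was at 24.6 CPM in MI-E, 18.6 CPM in MI and 18.3 CPM in Sham, 1.34-fold higher in MI-E than in Sham (1.13 to 1.60). It was at 11.96, 9.75 and 9.97 CPM in monocyte-like and 36.6, 24.98 and 37.4 CPM in T-like cells of MI-E, MI and Sham.

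A1 is encoded in the mouse by nearly identical gene copies on chromosome 9, and the reads cannot fully separate them. The coding regions of Bcl2a1b and Bcl2a1d are 516 bases long and differ at 6 of them, and the last 300 bases of their transcripts, where this chemistry reads, are 98.0% identical with a shared run of 175 bases. The first 90 coding bases are shown because they are the window with the most differences, 2, written in capitals. They lie at chr9:89199360-89199449 on the plus strand for Bcl2a1b and at chr9:88731630-88731719 on the minus strand for Bcl2a1d (mm10).

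Bcl2a1b: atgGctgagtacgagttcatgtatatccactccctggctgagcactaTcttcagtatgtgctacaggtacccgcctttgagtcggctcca

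Bcl2a1d: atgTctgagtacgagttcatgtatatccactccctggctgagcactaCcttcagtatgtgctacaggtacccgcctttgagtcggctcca

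Given such likeness, a UMI assigned to one copy may come from the other. The third copy, Bcl2a1a, was at 1.44 CPM or less in the classes compared. Across 47 class and library points the 2 members correlated at r = 0.90 on the scale log2(CPM + 10), a description, since those points share libraries.

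Bcl2a1b was a late gene of the B lineage, with 0 UMIs in pro-B-like and small pre-B-like cells of MI-E and MI, 2 and 10 UMIs (2.46 and 2.58 CPM) in those of Sham, and 17.1, 21.7 and 28.8 CPM in immature B-like cells of MI-E, MI and Sham. Its levels in mature naive B-like cells were 21.9 CPM in MI-E (17.4 to 27.3), 19.2 CPM in MI (14.0 to 25.7) and 40.1 CPM in Sham (34.6 to 46.2). MI-E and MI overlapped and both lay below Sham, at 0.55-fold (0.42 to 0.71) and 0.48-fold (0.34 to 0.67). Of all genes of the class, 2.19% in MI-E and 2.71% in MI were at least 1.5-fold below Sham. Inside the sub-clusters the picture was less even. The ratio of MI-E to Sham was 0.58 in b0 (0.30 to 1.22) but 1.14 in b1 (0.64 to 1.90), at 46.2 CPM in MI-E and 40.6 CPM in Sham, and that of MI to Sham was 0.57 (0.29 to 1.23) in b0 and 0.50 (0.10 to 1.49) in b1. All 4 intervals include 1. In T-like cells the order was MI-E, MI, Sham from low to high, at 25.8 CPM in MI-E (18.7 to 34.8), 49.2 CPM in MI (37.8 to 62.9) and 73.9 CPM in Sham (58.7 to 91.9). The interval of MI-E lay below the other intervals, which overlapped. MI-E was at 0.35 of Sham (0.24 to 0.51) and 0.52 of MI (0.35 to 0.79), although 1 Sham cell alone held 12 of the 81 Sham UMIs. In T-like cells 7.65% of all genes were at least 1.5-fold lower in MI-E than in Sham, and 5.16% than in MI. Bcl2a1d was also below Sham in T-like cells, at 12.6, 11.7 and 23.7 CPM in MI-E, MI and Sham. The intervals of these Bcl2a1d levels overlapped, and 1 cell held 7 of its 26 Sham UMIs. Its mature naive B-like levels were 7.77, 7.25 and 13.5 CPM, but under the stricter cell filter the log2 ratio to Sham turned to 0.62 in MI-E and 0.02 in MI, from -0.80 and -0.90. Within b1 it was at 14.4 CPM in MI-E, from 5 UMIs, and 13.8 CPM in Sham.

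Markers of division were also lower in T-like cells of MI-E. For MI-E against Sham, 13 of 18 measured genes of the dividing-cell list were at least 1.5-fold lower and none was higher, among them Mki67 at 24.6 CPM in MI-E, 57.8 CPM in MI and 73.0 CPM in Sham. Ccr7, a homing receptor of naive T cells, was higher instead, at 87.6, 70.3 and 28.3 CPM in MI-E, MI and Sham. Cd8a was at 244, 169 and 159 CPM. How far the mixture of T cells sets the A1 values was not tested. NF-kB is a known inducer of A1, and of the survival input list, which holds its subunits beside cytokine receptors, 3 of 16 genes measured in T-like cells were higher and 2 lower in MI-E than in Sham, in a class where 16.2% of all genes were higher and 7.65% lower.

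Bax, on chr7:45461697-45466898 (minus strand), encodes one of the pair of pore formers, and it was lower in MI-E than in Sham in each of the 8 classes. Pro-B-like cells held 45.5 CPM in MI-E, 78.8 CPM in MI and 138 CPM in Sham, and small pre-B-like cells 79.7, 105 and 137 CPM. Large pre-B-like cells held 50.3 CPM in MI-E and 119 CPM in Sham. Each of these stages was past 1.5-fold in MI-E against Sham, at 0.33 (0.16 to 0.61), 0.42 (0.26 to 0.65) and 0.58 (0.45 to 0.75) of Sham for pro-B-, large pre-B- and small pre-B-like cells, where 17.1%, 14.1% and 7.38% of all genes were at least 1.5-fold lower. T-like cells, with 81.6 CPM in MI-E, 101 CPM in MI and 127 CPM in Sham, were the fourth class past that mark. Inside sub-cluster b2, the one small pre-B-like sub-cluster with enough cells of MI-E and Sham to compare, Bax was at 101 CPM in 163 MI-E cells (58.9 to 162) and 138 CPM in 2879 Sham cells, a ratio of 0.73 (0.42 to 1.19) that is not past 1.5-fold.

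The remaining classes held smaller differences in the same direction. Immature B-like cells were at 92.7, 112 and 129 CPM, mature naive B-like cells at 77.4, 100.2 and 99.3 CPM, and monocyte-like cells at 147, 183 and 170 CPM in MI-E, MI and Sham. All 8 counting intervals of MI-E over Sham lay below 1. MI-E was also below MI in each of the 7 classes that could be compared, with folds of 0.58 to 0.83 and 3 intervals wholly below 1. MI against Sham gave no such pattern, with 3 classes higher and 4 lower. Erythroid markers were also lower in MI-E than in Sham in the same 8 classes. The summed level of 32 such genes spanned 549 to 1494 CPM in MI-E, 772 to 2742 CPM in MI and 1452 to 6364 CPM in Sham. For MI against Sham the sum was lower in all 7 classes compared, while Bax was higher in 3 and lower in 4. The part of erythroid RNA in the Bax values was not tested.

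Being lower in every class, at any fold, was not rare. The share of genes with all 8 intervals below 1 was not counted. The genes most like Bax, picked from these same values as described below, were Atp5d, Ndufa7 and Nt5c. Of these, Atp5d and Ndufa7 also had all 8 intervals of MI-E over Sham below 1, and Nt5c was lower in 6 of 8 classes. Each was lower in MI-E than in MI in all 7 classes compared. Among 4839 genes measured in all 8 classes, 6.63% were lower in MI-E than in Sham in every class, and among 4963 measured in the 7 classes, 6.75% were lower in MI-E than in MI in every class. Bax was past 1.5-fold in MI-E against Sham under all 11 other ways of processing in pro-B-, large pre-B- and small pre-B-like cells, and under 10 of 11 in T-like cells. Within mature naive B-like cells the ratio was 0.73 (0.51 to 1.07) in sub-cluster b0 and 0.76 (0.49 to 1.13) in b1.

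Neutrophil-like cells gave the lowest Bax of the 8 classes, at 20.04 CPM in MI-E (18.1 to 22.1), 33.7 CPM in MI (31.5 to 35.9) and 24.5 CPM in Sham (21.5 to 27.8). Free RNA would give 10.0, 11.8 and 12.1 CPM of this. MI-E was at 0.60 of MI here (0.53 to 0.67), while 0.904% of all genes of the class were at least 1.5-fold lower in MI-E than in MI. Cluster 11 went the other way against Sham, with 33.1 CPM in MI-E and 17.2 CPM in Sham, a ratio of 1.92 (0.99 to 3.47); the ratio was also above 1 in the monocyte-like clusters 13 and 25, at 1.10 and 1.15.

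Bak1, on chr17:27019810-27029009 (minus strand), encodes the other pore former and did not follow Bax. Monocyte-like cells held 119 CPM in MI-E (115 to 123), 108 CPM in MI (105 to 112) and 75.7 CPM in Sham (71.7 to 79.8). MI-E was 1.57-fold above Sham (1.47 to 1.67) and 1.10-fold above MI (1.04 to 1.15), and MI was 1.43-fold above Sham (1.34 to 1.53). In this class 6.2% of all genes were at least 1.5-fold higher in MI-E than in Sham, and Bak1 was past that mark under 7 of 11 other ways of processing. Inside monocyte-like clusters the ratio of MI-E to Sham was 1.70 (1.51 to 1.91) in cluster 10, 1.59 (1.27 to 2.00) in cluster 13, 1.38 (0.93 to 1.99) in cluster 6 and 0.96 (0.59 to 1.57) in cluster 25. Neutrophil-like cells were at 64.8, 61.8 and 49.8 CPM and mature naive B-like cells at 40.5, 33.7 and 27.4 CPM in MI-E, MI and Sham, the same order, and T-like cells at 45.0, 44.5 and 40.1 CPM. So in monocyte-like cells the pair of pore formers stood on opposite sides of Sham in MI-E, Bak1 at 1.57 and Bax at 0.86 (0.82 to 0.91) of it.

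**Figure D3:**
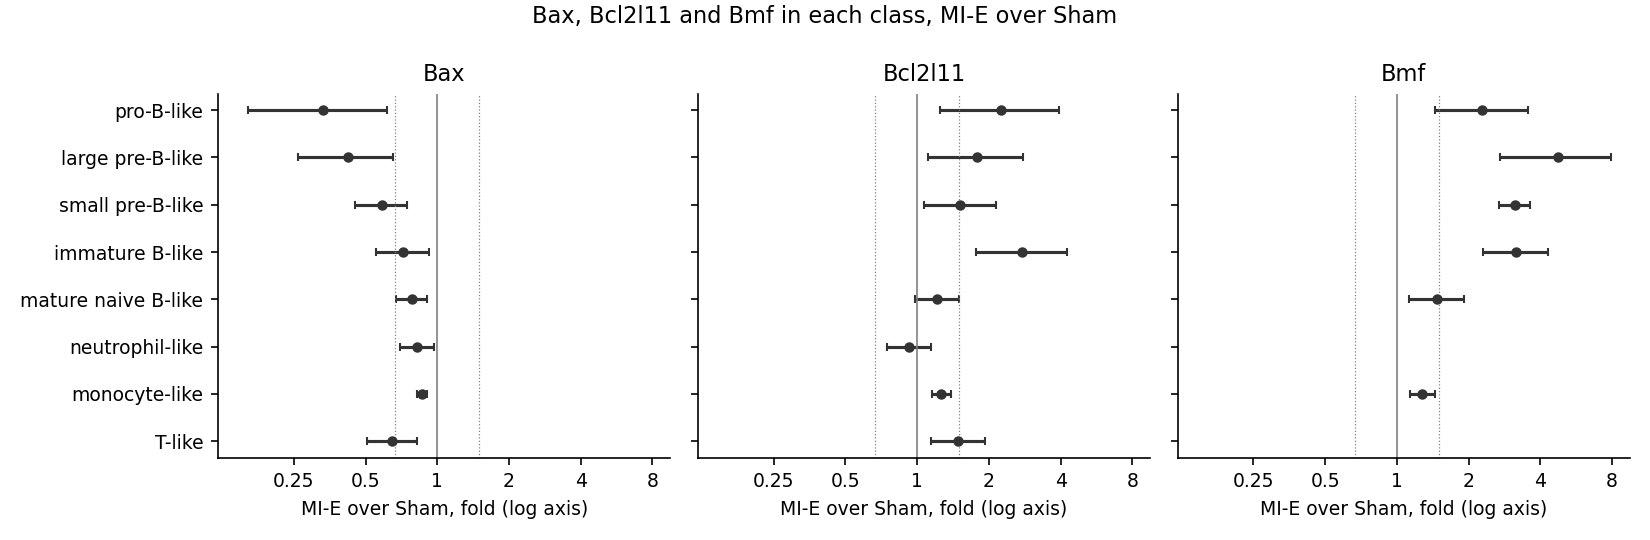
Ratio of MI-E to Sham in each class for Bax, Bcl2l11 and Bmf, on a log axis with 95% counting intervals and dotted lines at 1.5-fold either way. Every Bax point lies below 1, from 0.33 in pro-B-like to 0.86 in monocyte-like cells, while 7 of 8 Bcl2l11 points and all 6 measured Bmf points lie above 1.

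BIM is the BH3-only protein that removes self-reactive and cytokine-starved lymphocytes, and its gene Bcl2l11, on chr2:128126038-128162547 (plus strand), was higher in MI-E than in Sham in 7 of 8 classes. Pro-B-like cells held 91.1 CPM in MI-E (57.1 to 138), 64.5 CPM in MI (29.5 to 123) and 40.7 CPM in Sham (28.0 to 57.1), a ratio of MI-E to Sham of 2.24 (1.24 to 3.96). Immature B-like cells held 50.03 CPM in MI-E (35.9 to 67.9), 18.1 CPM in MI (10.1 to 29.9) and 18.2 CPM in Sham (13.4 to 24.1). The ratio of MI to Sham was 1.00 there (0.52 to 1.81), and MI-E stood apart from both, 2.75-fold above Sham (1.77 to 4.27) and 2.76-fold above MI (1.5 to 5.37). Of all genes, 21.6% were at least 1.5-fold higher in MI-E than in Sham in pro-B-like cells and 16.7% in immature B-like cells, where 10.9% were higher in MI-E than in MI.

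Being higher in at least 7 of 8 classes was common, at 29.7% of the genes measured in all of them, so the count of classes says little by itself. Large pre-B-like cells held 55.1 CPM in MI-E and 30.8 CPM in Sham, and small pre-B-like cells 50.6, 47.2 and 33.3 CPM in MI-E, MI and Sham, ratios of MI-E to Sham of 1.79 (1.11 to 2.77) and 1.52 (1.06 to 2.14). The small pre-B-like value was past 1.5-fold under 6 of 11 other ways of processing, and within b2 the ratio was 1.93 (0.94 to 3.57). T-like cells stood at 118 CPM in MI-E (102 to 135), 112 CPM in MI (94.1 to 131) and 79.4 CPM in Sham (63.6 to 97.9). Monocyte-like cells stood at 52.8, 40.3 and 41.8 CPM in MI-E, MI and Sham. The exception was the neutrophil-like class, at 13.1, 13.4 and 14.1 CPM. For MI against Sham 4 of 7 classes were higher, and 2 were past 1.5-fold. These were pro-B-like cells, whose 9 MI UMIs leave overlapping intervals, and mature naive B-like cells. Of all genes, 21.2% and 9.96% were at least 1.5-fold higher in MI than in Sham in these 2 classes. Mature naive B-like cells held 47.4 CPM in MI-E, 60.1 CPM in MI and 39.0 CPM in Sham. The MI value was past 1.5-fold under 8 of 11 other ways of processing, with a lowest log2 ratio of 0.23, and inside the sub-clusters the ratio of MI to Sham was 1.15 (0.69 to 2.03) in b0 and 1.96 (0.96 to 3.6) in b1.

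BMF, another BH3-only protein, lies outside the 10 but had still larger differences. Small pre-B-like cells held 330 CPM of Bmf in MI-E, 282 CPM in MI and 105 CPM in Sham, so MI-E was 3.13-fold (2.69 to 3.64) and MI 2.67-fold (2.24 to 3.18) above Sham, while 11.3% and 10.4% of all genes of the class were at least 1.5-fold above Sham in MI-E and MI. Immature B-like cells held 104, 103 and 32.9 CPM, 3.15-fold (2.31 to 4.30) and 3.12-fold (2.28 to 4.25) above Sham. In small pre-B-like cells the difference was also there inside sub-cluster b2, where the ratio of MI-E to Sham was 3.20 (2.38 to 4.23). Among mature naive B-like cells the class ratio of 1.47 (1.13 to 1.92) did not hold inside its sub-clusters, at 0.90 in b0 and 0.80 in b1. Over the whole list of other family genes, 9 of 51 values were at least 1.5-fold higher and 1 was lower in MI-E than in Sham, beside 13.5% and 8.15% of all genes. One of the 9 was Bid in T-like cells, whose protein links death receptors to BAX, at 30.6 CPM in MI-E, 30.4 CPM in MI and 16.4 CPM in Sham.

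Bcl2l11 and Bbc3 are both known targets of FoxO transcription factors, which act when PI3 kinase signalling is low. The 250 bases before each start site are printed because, of 9 motifs searched on both strands in 14 promoter windows of 9 members, the FoxO letters GTAAACA occurred in these 2 genes. The promoters are from RefSeq (GRCm38.p6), with the match in capitals. The Bcl2l11 window lies at chr2:128125788-128126037 on the plus strand, and its match is on the gene's own strand, 227 bases before the start. The Bbc3 window lies at chr7:16310011-16310260 on the plus strand, before a start site inside the annotated gene, and its match is on the opposite strand, 167 bases before the start.

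Bcl2l11: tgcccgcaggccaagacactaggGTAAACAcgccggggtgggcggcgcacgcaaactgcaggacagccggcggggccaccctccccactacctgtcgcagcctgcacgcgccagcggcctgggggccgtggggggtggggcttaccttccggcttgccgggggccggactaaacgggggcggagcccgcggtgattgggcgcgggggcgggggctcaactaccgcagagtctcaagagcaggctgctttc

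Bbc3: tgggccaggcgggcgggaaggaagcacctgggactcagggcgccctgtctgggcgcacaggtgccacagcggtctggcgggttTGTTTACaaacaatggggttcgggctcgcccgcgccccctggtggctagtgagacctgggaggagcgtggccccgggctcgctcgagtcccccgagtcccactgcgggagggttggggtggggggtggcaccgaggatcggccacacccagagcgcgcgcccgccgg

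The same letters were found in 3.65% of 32851 windows of all genes. An NF-kB motif, GGG and TTCC 3 bases apart, was found in windows of Bbc3, Bcl2l1 and Mcl1 and in 5.56% of all windows. Its stricter form with ACT between them, which overlaps it, was in 0.155% of all windows and in 0 of the 14 member windows. The PU.1 motif GAGGAAGT was in windows of Bak1, Bcl2a1b and Bcl2a1d and in 3.20% of all. The glucocorticoid receptor motif ACANNNTGT was in a window of Bcl2l1 and in 6.85% of all, and the E-box CANNTG in 9 member windows and 72.3% of all. STAT letters (TTCNNNGAA, 8.30% of all), AP-1 (TGACTCA, 5.20%) and CRE (TGACGTCA, 1.79%) were not in these windows. A match is a string of letters, not a binding site.

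Bbc3, on chr7:16308393-16318205 (plus strand), is the gene of PUMA, which neutralises all protectors, and it gave the largest difference among the members in T-like cells. There were 94 UMIs in 883 MI-E cells, 59 in 643 MI cells and 13 in 420 Sham cells. These are 56.4 CPM in MI-E (45.6 to 69.0), 46.1 CPM in MI (35.1 to 59.4) and 11.9 CPM in Sham (6.32 to 20.3). MI-E and MI overlapped and both lay above Sham, by 4.76-fold (2.65 to 9.26) and 3.88-fold (2.11 to 7.72), while MI-E over MI was 1.22 (0.87 to 1.73). In this class 16.2% of all genes were at least 1.5-fold higher in MI-E than in Sham and 13.5% in MI than in Sham. Markers of T cell states also differed between the libraries, not all in the order of Bbc3. Ccr7, given above, was higher in MI-E and MI than in Sham. Ccl5, a chemokine of effector T cells, was at 3088 CPM in MI-E, 4210 CPM in MI and 4780 CPM in Sham. The counting intervals of Cd8a and Mki67 overlapped between MI and Sham. Cd4 was at 45.6 CPM in MI-E, 82.0 CPM in MI and 43.8 CPM in Sham. The part of the mixture of T cells in the Bbc3, Bcl2 and Bcl2l11 differences was not tested.

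NK-like cells, a neighbouring lymphocyte class, showed the same order at 62.2, 45.3 and 13.1 CPM in MI-E, MI and Sham, from 33, 15 and 4 UMIs. Monocyte-like cells had the reverse, 5.82 CPM in MI-E, 3.796 CPM in MI and 15.01 CPM in Sham, so that MI-E was at 0.39 of Sham (0.32 to 0.48), in a class where 4.93% of all genes were at least 1.5-fold lower. The B stages were low throughout. MI-E was also below Sham inside the 4 monocyte-like clusters both held in number, but the intervals of the ratio crossed 1 in 3 of them. The exception was cluster 10, at 5.07 CPM in MI-E and 10.4 CPM in Sham, a ratio of 0.49 (0.32 to 0.74).

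**Figure D4:**
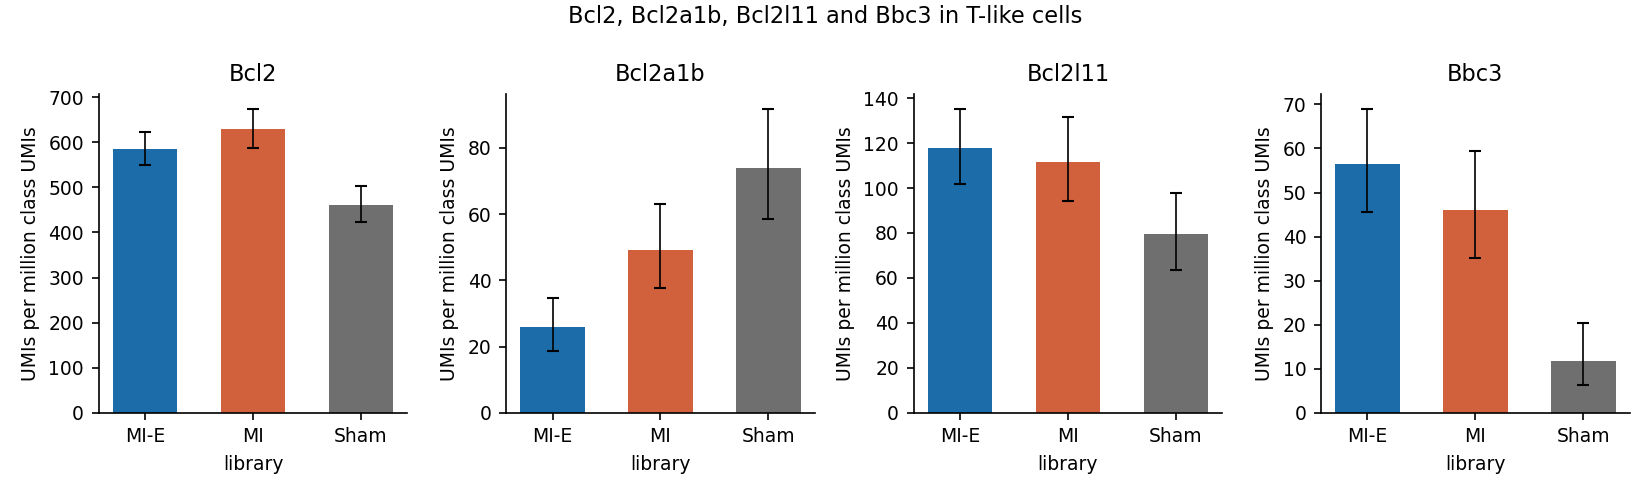
Levels (CPM) of Bcl2, Bcl2a1b, Bcl2l11 and Bbc3 in T-like cells of MI-E, MI and Sham, with Poisson 95% intervals. Bcl2, Bcl2l11 and Bbc3 are lowest in Sham (462, 79.4 and 11.9 CPM), and Bcl2a1b is highest there (73.9 CPM).

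Pmaip1, the gene of NOXA, which targets MCL1 and A1, was scarce. Mature naive B-like cells held 8.88, 6.82 and 12.5 CPM and T-like cells 7.80, 6.25 and 4.56 CPM in MI-E, MI and Sham. Monocyte-like cells held 3.84 CPM in MI-E, 2.96 CPM in MI and 11.9 CPM in Sham, with means below the 10 CPM needed to count as measured. Inside cluster 6, the largest monocyte-like cluster of Sham, Pmaip1 was at 13.7 CPM in Sham and at 20.5 CPM in MI-E, from 6 UMIs. The monocyte-like cluster 25 held more, with 48.5, 56.8 and 95.1 CPM in MI-E, MI and Sham.

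Counting all classes together, 22 of 53 member values were at least 1.5-fold apart between MI-E and Sham, 11 higher and 11 lower. Each is 20.8% of the measured values, against 13.5% of all genes higher and 8.15% lower. These values count a gene once for each class, and the classes come from the same libraries. Among the lower values Bax gave 4, Bcl2a1b 3 and Bcl2a1d 2, and the reads of the A1 copies cannot be fully separated. Among the higher values Bcl2l11 gave 4. Single genes thus weigh repeatedly in both shares, and an excess of the family over all genes was not tested. Under median-of-ratios scaling the split of the member values was 8 higher and 13 lower, and with each cell weighted equally it was 6 higher and 11 lower. MI against Sham gave 4 higher and 7 lower of 43, against 11.4% and 9.03% of all genes, with 3 higher and 9 lower under median-of-ratios scaling. MI-E against MI gave 3 higher and 3 lower of 42, 7.14% each, against 9.15% and 6.82%, with 6 higher and 3 lower when totals left out abundant genes. The shares for MI-E against MI were thus near those of all genes. Of the 22 values apart between MI-E and Sham, pro-B-like cells gave 4, which rest on few cells, and T-like cells gave 4.

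The pathways that feed the family were compared in the same way, to be read against the same 13.5% of all genes higher and 8.15% lower. For MI-E against Sham, 18 of 91 values of p53 and its targets were at least 1.5-fold higher and 4 lower, 29 of 124 values of survival inputs were higher and 6 lower, and 11 of 80 values of FoxO and PI3 kinase genes were higher and 3 lower, so that the FoxO and PI3 kinase genes were higher about as often as all genes. Among them, Pik3ip1, an inhibitor of PI3 kinase, was at 153 CPM in MI-E and 31.4 CPM in Sham in mature naive B-like cells, and at 136 and 31.9 CPM in T-like cells. Il7r, whose ligand keeps pre-B and T cells alive, was at 1383 CPM in MI-E and 464 CPM in Sham in small pre-B-like cells, and at 805 and 267 CPM in T-like cells. Downstream of the mitochondria, caspases, the apoptosome and their inhibitors gave 13 higher and 11 lower of 124 values, the inhibitor Birc3 standing at 271 CPM in MI-E and 154 CPM in Sham in mature naive B-like cells. Death receptor genes gave 2 higher and 7 lower of 57, and mitochondrial membrane partners such as Vdac2 gave 6 higher and 2 lower of 78.

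Broad responses also differed between the libraries. Genes induced by glucocorticoids, hormones under which Bcl2l11, Bmf and Bbc3 are known to rise in lymphocytes, were at least 1.5-fold higher in 54 of 101 values and lower in 6 for MI-E against Sham, and in 46 and 6 of 91 for MI against Sham. In T-like cells alone 10 of 15 were higher in MI-E and 9 of 15 in MI, while in neutrophil-like cells 2 of 10 were higher and 2 lower for both. The immediate early genes that tissue dissociation is known to induce were lower in 58 of 120 values and higher in 2 for MI-E against Sham, and lower in 65 and higher in 3 of 109 for MI against Sham. Egr1 in neutrophil-like cells was at 44.6 CPM in MI-E and 251 CPM in Sham. Pik3ip1 and Il7r belong to the glucocorticoid list as well, so the lists are not separate. The part of either response in the members' values was not tested.

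Finally, the genes whose levels ran most like each member's over the 47 class and library points were listed by Pearson r of log2(CPM + 10), as a description over points that share libraries and depth. Bcl2 was most like Runx3 (r = 0.90), Bcl2l1 like Fam53b (0.81), Mcl1 like Ptprj (0.86), Bcl2a1b like Shisa5 (0.75) and Bcl2a1d like Phf11b (0.72). Bax was most like Atp5d (0.88), Bak1 like Copz1 (0.79), Bcl2l11 like Lfng (0.84), Bbc3 like Lpin1 (0.84) and Pmaip1 like Fcgrt (0.87).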

How the data were processed

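UMI counts per gene and cell barcode were deposited by the authors as 3 matrices, 1 per condition; per the submitters' processing notes, Cell Ranger 5.0.1 and mm10 were used. Which gene annotation was counted is not stated there. The members and lists were chosen with earlier results of these data known. The matrices held 22857 MI-E, 23810 MI and 25721 Sham barcodes with 109451500, 127330601 and 99657072 UMIs; 156 barcodes were shared by MI-E and MI, 176 by MI-E and Sham and 170 by MI and Sham. Cells needed at least 300 genes and 500 UMIs and at most 10% mitochondrial UMIs, and Scrublet-type scoring in scanpy 1.11.5 removed 12.8%, 13.0% and 15.1% of the cells that passed as likely doublets in MI-E, MI and Sham. Median UMIs per kept cell were 2581.5, 3110 and 2132.

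Cells were clustered with Leiden (leidenalg 0.10.2, resolution 1) on 40 principal components of 2000 variable genes without the Bcl2 family. B lineage cells were clustered again on 30 components. Clusters were named by the mean of fixed marker lists. The stage naming rules were a least score of 0.15, a check of the top 10 genes, and at least 100 CPM of Igll1 plus Vpreb1 for the large pre-B stage. These rules were chosen after the clusters were seen, and 9.36%, 11.9% and 12.7% of B lineage cells in MI-E, MI and Sham stayed without a stage. No count model was run, since each condition is 1 library: UMIs were summed per class and library, and classes needed 50 cells and 50000 UMIs. Intervals and floors (3 counts for a 0) cover counting error only. Fewer molecules per cell and fewer expressing cells cannot be told apart in such sums.

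The rule for names took all members, other family genes above 10 CPM, the largest or most different genes of each list and the genes most alike; other genes named are examples chosen with their values known. A1 coding sequences came from the reference transcripts of mm10 and promoters from RefSeq. Ratios, intervals and calls were tested on data simulated for mature naive B-like and neutrophil-like cells, with well-expressed genes changed 2-fold. That test does not cover small classes, genes near 10 CPM or folds near 1.5. Alternatives were the cell filter, doublets, resolution, variable genes, scaling, weighting, thinning, the top cell and the call limits. Columns of per-sample values not used numbered 0. Other tools were scipy 1.17.1, matplotlib 3.10.9, Python 3.11.15, pandas 2.3.3 and numpy 2.4.6.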

Additional observations from a re-analysis of the deposited data

Results flagged for a closer look

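Some members stood on opposite sides of Sham in different classes, counted in CPM with a log2 ratio of MI-E to Sham; no difference between classes was tested, since each condition is 1 library. Bbc3 was higher in T-like cells (log2 2.25) and lower in monocyte-like cells (-1.37). Bcl2 was higher in pro-B-like (0.94, from 4 UMIs in MI-E and 7 in Sham) and mature naive B-like cells (0.59) and lower in monocyte-like cells (-0.93), where B lineage markers summed to 405 CPM in MI-E and 1406 CPM in Sham. Bcl2a1d was higher in immature B-like cells (0.90) and lower in mature naive B-like (-0.80) and T-like cells (-0.91). A UMI assigned to it may come from Bcl2a1b. The Bcl2a1d signs in the B stages turn with the processing, to -0.17 in immature B-like cells with 4000 variable genes and to 0.62 in mature naive B-like cells under the stricter cell filter.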

How the results depend on the processing

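No paired analysis was possible because the labels give no replicate numbers and each condition is 1 library. Over 11 alternatives and 138 member values, 1494 ratios were recomputed. Of these, 1390 stayed inside the counting interval of the main ratio, 98 moved outside it and 6 were set apart as reversed. Reversal was counted only among the 423 recomputed values whose main ratio was at least 1.5-fold. A change of sign in the others was not counted. The counts of members at least 1.5-fold apart moved as follows. MI against Sham gave 11, but 7 without the top cell and 4 at a fold of 2. MI-E against MI gave 6, but 10 under the stricter cell filter, 2 at a fold of 2 and 12 at a least mean of 5 CPM. MI-E against Sham gave 22, and 7 at a fold of 2. The calls along B stages numbered 12, within 11 to 15 under each alternative.

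The reversed log2 ratios were Bak1 in pro-B-like cells of MI over Sham when thinned to 1000 UMIs (-0.02, otherwise 0.66) and Bcl2 in pro-B-like cells of MI-E over Sham without doublet removal (-0.26, otherwise 0.94). The other four concern A1: Bcl2a1d in mature naive B-like cells under the stricter filter (0.02 for MI over Sham and 0.62 for MI-E over Sham, otherwise -0.90 and -0.80), Bcl2a1d in immature B-like cells with 4000 variable genes (-0.17, otherwise 0.90) and Bcl2a1b there at resolution 1.5 (0.60, otherwise -0.75), both MI-E over Sham. The cause was not tested. The stricter filter left no immature B-like class, so it gives no value there. Bbc3 in T-like cells stayed past 1.5-fold against Sham under all 11, in MI-E and in MI. Bcl2 in monocyte-like cells of MI-E over Sham ranged from -1.02 to -0.03 and Mcl1 in neutrophil-like cells from 0.52 to 0.88.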
